A study of Mus musculus with 6 samples.

Results

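MHC class I heavy chains and their common light chain were followed in bEND.3 cells, a mouse brain endothelial cell line, after knockdown of the long non-coding RNA Gm39822. The members were the rows of the count table whose gene name is H2-K1, H2-D1, H2-Q4, H2-Q6, H2-Q7, H2-T22, H2-T23, H2-M3 or B2m, which gave 9 genes of 49315 in the table. All 9 passed the filter on low counts, as did 18234 genes of the table. Cells in the GapmeR group (n = 4) were transfected by lipofection with an antisense LNA GapmeR against Gm39822 at 100 nM, and cells in the Negative Control group (n = 2) with a control GapmeR at the same dose. A GapmeR is a short antisense oligonucleotide that directs RNase H to cut its target RNA. No allele was edited in either group, one GapmeR sequence was used against Gm39822, no cytokine is named in the labels, and ribosomal RNA was depleted before sequencing. The labels do not say whether the samples of a group came from separate cultures, so p-values measure the spread between these samples, which may be technical.

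An MHC class I molecule is a heavy chain held by B2m, beta-2 microglobulin, with a short peptide in its groove. Peptides are cut by the proteasome, carried into the endoplasmic reticulum by the Tap1-Tap2 transporter and loaded with the help of tapasin, and most chains that lack B2m do not reach the cell surface. H2-K1 and H2-D1 are the classical chains, which present peptides to CD8+ T cells. The H2-Q, H2-T and H2-M chains are non-classical, vary less between strains and have narrower roles. Endothelial cells show class I at rest, and interferons raise it through IRF1 and the coactivator NLRC5.

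Gm39822 itself had 61 and 56 counts in the controls and 2, 1, 4 and 2 in GapmeR samples 1 to 4. Its log2 fold change was −4.82 (SE 0.41, adjusted p = 8.8e-08 by edgeR's quasi-likelihood test), so the targeted RNA was lower in every library labelled as knockdown. Total counts were 29261988 to 37117934 per sample. At that depth 3 counts were worth 0.0771 to 0.11 CPM, counts per 1000000 after scaling by TMM, far under the lowest level of any of the 9 genes, and this limit covers counting error only. The 10 endothelial markers Pecam1, Cdh5, Kdr, Tek, Tie1, Eng, Emcn, Cldn5, Vwf and Esam were counted in every sample. Their summed level was 6133 to 7116 CPM after knockdown and 8343 to 8583 CPM in the controls. Tek, Tie1, Cldn5 and Vwf were not called by edgeR's quasi-likelihood test at an adjusted p under 0.05. The other markers of this list were called lower. The 8 leukocyte and macrophage markers were also counted in every sample. They summed to 203 to 372 CPM after knockdown, highest in GapmeR samples 3 and 4, and to 170 to 173 CPM in the controls. Cd68 and Lyz2 made up most of this sum. Of the 8, only Cd68 and Fcgr1 were called higher, Fcgr1 at under 1 CPM in every sample, and Cd14 was lower but not called. Other lists were low. The 6 mural and fibroblast markers summed to 3.47 to 42.6 CPM, highest in GapmeR sample 3, and the 2 epithelial markers to at most 0.0619 CPM. The 5 neural markers summed to 22.6 to 36.8 CPM after knockdown and to 48.3 and 48.9 CPM in the controls. In such bulk samples, fewer cells of a type and less RNA per cell cannot be told apart, and the part of these markers in the results was not tested.

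Class I promoters carry an upstream enhancer with a kappaB site, bound by NF-kappaB, beside an interferon-response element, followed by elements bound by the RFX, CREB/ATF and NF-Y proteins with which NLRC5 acts. The RefSeq promoters of all 9 genes (GRCm38.p6, the mm10 assembly, from 250 bases before to 50 after the start site) were searched on both strands for letters of these elements. The 5 shown here were picked to show both chains with kappaB-like letters (GGG, any 2 letters, TT, any letter, CC) and chains without them. Capitals mark those letters and the interferon-response-like letters AANNGAAA, on either strand, and the sequences are of the C57BL/6J reference, 5′ to 3′ along the gene. They lie at chr17:34000298-34000597 (H2-K1, minus strand, the first of 2 listed starts), chr17:35424600-35424899 (H2-Q6, plus strand), chr17:36032652-36032951 (H2-T23, minus strand), chr17:37269984-37270283 (H2-M3, plus strand) and chr2:122147437-122147736 (B2m, plus strand).
H2-K1: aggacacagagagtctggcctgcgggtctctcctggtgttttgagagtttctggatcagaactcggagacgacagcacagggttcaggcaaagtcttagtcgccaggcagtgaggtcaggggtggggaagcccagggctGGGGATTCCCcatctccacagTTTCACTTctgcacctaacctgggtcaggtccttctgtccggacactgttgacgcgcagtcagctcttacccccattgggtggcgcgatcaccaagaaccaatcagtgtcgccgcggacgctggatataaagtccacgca
H2-Q6: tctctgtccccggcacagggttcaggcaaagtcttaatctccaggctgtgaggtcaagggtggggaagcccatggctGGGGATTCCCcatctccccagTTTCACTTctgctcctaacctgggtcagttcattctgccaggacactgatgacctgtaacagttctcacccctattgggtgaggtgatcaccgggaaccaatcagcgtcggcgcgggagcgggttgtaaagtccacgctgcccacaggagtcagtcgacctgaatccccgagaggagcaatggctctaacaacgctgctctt
H2-T23: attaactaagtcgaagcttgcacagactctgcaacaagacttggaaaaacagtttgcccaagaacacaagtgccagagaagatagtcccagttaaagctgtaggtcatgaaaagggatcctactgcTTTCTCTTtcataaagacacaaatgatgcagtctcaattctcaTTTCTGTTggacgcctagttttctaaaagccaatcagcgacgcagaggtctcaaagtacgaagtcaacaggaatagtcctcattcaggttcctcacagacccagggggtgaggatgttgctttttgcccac
H2-M3: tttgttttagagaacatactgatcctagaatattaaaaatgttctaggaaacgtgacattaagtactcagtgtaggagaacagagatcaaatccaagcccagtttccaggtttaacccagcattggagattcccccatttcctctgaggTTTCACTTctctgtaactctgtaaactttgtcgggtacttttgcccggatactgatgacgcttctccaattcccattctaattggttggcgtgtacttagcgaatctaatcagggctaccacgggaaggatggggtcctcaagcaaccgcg
B2m: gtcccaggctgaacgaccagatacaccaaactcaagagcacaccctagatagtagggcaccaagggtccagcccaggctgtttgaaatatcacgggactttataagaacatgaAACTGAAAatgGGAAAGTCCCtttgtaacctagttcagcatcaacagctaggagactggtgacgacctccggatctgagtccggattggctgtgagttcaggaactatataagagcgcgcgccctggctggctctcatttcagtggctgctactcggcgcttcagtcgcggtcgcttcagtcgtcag

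In H2-K1 the kappaB-like letters began at −111, counted in bases from the start site, and the interferon-response-like letters at −90. The pair stood at −173 and −152 in H2-Q6, at −171 and −150 in H2-D1, and at −133 and −113 in H2-Q7. H2-Q4 had overlapping kappaB-like matches at −174 and −173 and the interferon-response-like letters at −153. B2m had both in the reverse order, at −137 and −126. H2-T22, H2-T23 and H2-M3 had no kappaB-like match in this window, whereas each had at least 1 interferon-response-like match, at −191, at −124 and −81, and at −101. So 6 of 9 members held the kappaB-like letters, which occurred in 4.71% of 27025 promoters of this length, and 9 of 9 held AANNGAAA, which occurred in 24.2%. TGACG, the core of the CREB/ATF element, was found in 7 of 9 (not in H2-Q6 or H2-T23) against 21% of all promoters. CCAAT, the NF-Y box, was found in 9 of 9 against 37.9%. On the gene's own strand CCAAT began at 8 in H2-K1, but at −53 in H2-D1, −55 in H2-Q6 and −16 in H2-Q7. Offsets depend on the start taken for each gene, and H2-K1 has 2 listed. A match is a description of the letters and not of a bound site, and the letters were chosen from knowledge of class I promoters with these sequences in view.

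All 9 genes were lower after knockdown of Gm39822 and none was higher at an adjusted p under 0.05, where 20.0% of all genes tested were called lower and 25.4% higher. With scaling by library size only, 2135 genes were called lower and 6106 higher in place of 3643 and 4625, the median log2 fold change of all genes moved up by 0.15, and all 9 members were still called lower. Of the 9, 8 fell at least 1.5-fold, as 7.62% of all genes did, and 5 fell at least 2-fold, as 3.29% of all genes did. Their median log2 fold change was −1.26, and 2.42% of all genes tested lay at or below it, beside a median of 0.03 over all genes. In each of the 9, every GapmeR sample lay below both controls, a pattern found in 27.3% of genes, while 31.9% had every GapmeR sample above both controls. The exact 2-sided permutation test over samples, with 15 splits, gave p = 0.0667 for each, the smallest value that 4 against 2 samples can give.

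**Figure D1:**
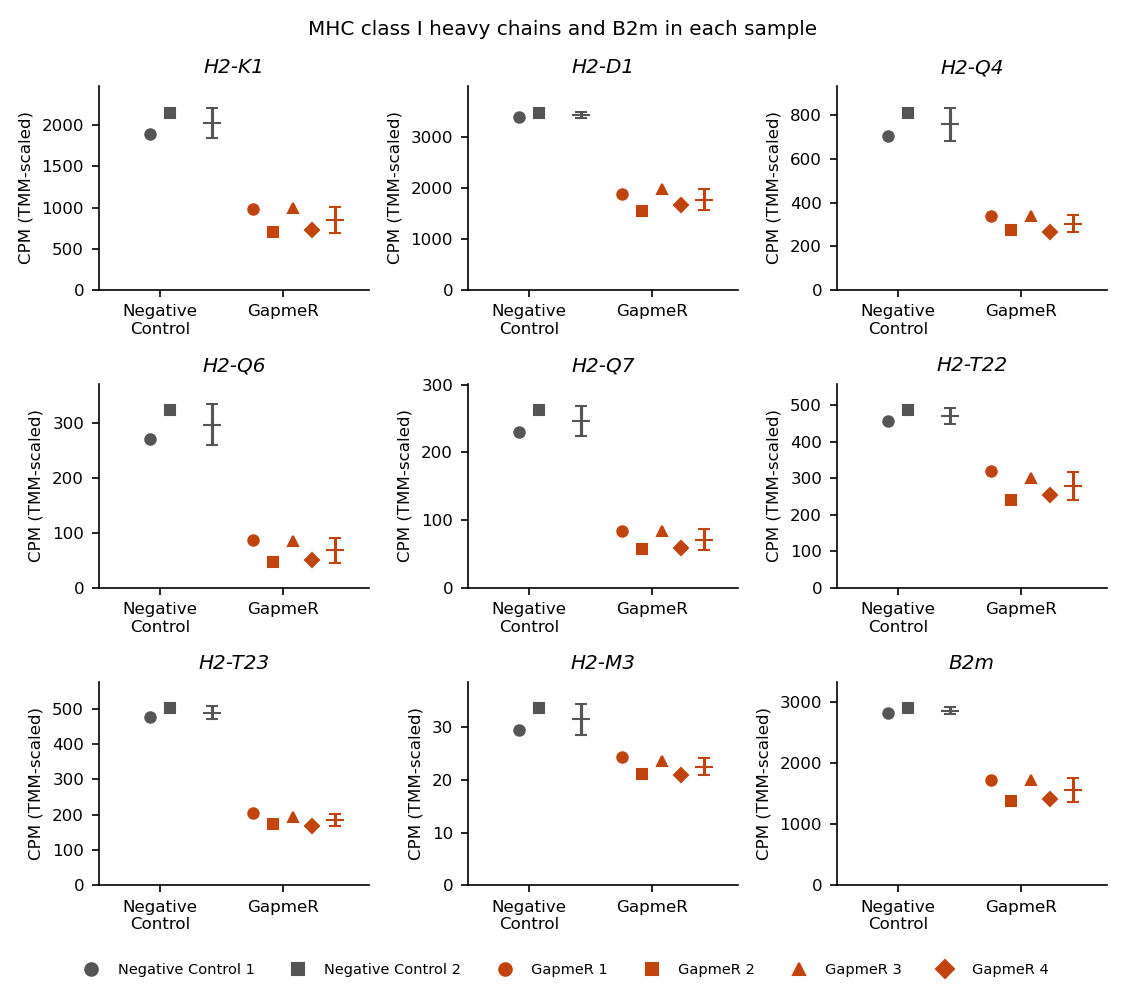
Level of each of the 9 genes in every sample, in TMM-scaled CPM on axes that start at 0. Points are samples, and the bar beside each group is the mean ± SD (n = 2 Negative Control, n = 4 GapmeR); every GapmeR point lies below both controls in all 9 panels, and GapmeR 2 and 4 lie below GapmeR 1 and 3.

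H2-K1 (chr17:33996012-34000619, minus strand), a classical chain, had 1897 and 2154 CPM in the controls and 977, 698, 994 and 724 CPM in GapmeR samples 1 to 4. Every knockdown sample was thus at 34.4% to 49.1% of the control mean. On average this was 41.9% of control, with SDs of 181 CPM around a control mean of 2026 (n = 2) and 159 CPM around a knockdown mean of 848 (n = 4), and edgeR gave −1.26 on the log2 scale (SE 0.15, adjusted p = 0.00011 by edgeR's quasi-likelihood test). H2-D1 (chr17:35263094-35267497, plus strand), the other classical chain, had the most counts of any member. Its level was 3379 and 3469 CPM in the controls and 1879, 1534, 1981 and 1653 CPM after knockdown. The controls were close to each other and the knockdown samples spread more widely, without reaching them. Its mean went from 3424 ± 63.6 CPM to 1762 ± 205 CPM, a log2 fold change of −0.96 (SE 0.10, adjusted p = 6.7e-07 by edgeR's quasi-likelihood test). The coding sequences of these 2 chains were 91.5% identical in the reference, yet no 150-base window of their transcripts, the length of a read, was the same in both. Such windows were shared with other genes for 6.34% of H2-K1 (with the transcript Gm53999) and 6.05% of H2-D1 (mainly with 5430410E06Rik), or 8.78% and 16.7% on the canonical transcripts alone, so some of their reads may have been split or dropped. Summed as 1 feature, the classical chains had a log2 fold change of −1.06 (SE 0.11, adjusted p = 1.3e-06 by edgeR's quasi-likelihood test).

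H2-Q6 and H2-Q7, neighbouring genes of the Qa-2 family, had the largest changes of the 9. H2-Q6 (chr17:35424850-35430055, plus strand) had 269 and 322 CPM in the controls and 87.4, 46.3, 85.6 and 51 CPM in GapmeR samples 1 to 4. Its knockdown samples formed a higher and a lower pair, both far below the controls. The mean fell from 296 ± 37.3 CPM to 67.6 ± 22 CPM, which was 22.9% of control, and the log2 fold change was −2.13 (SE 0.33, adjusted p = 0.0069 by edgeR's quasi-likelihood test). This was the least certain call of the 9, with an adjusted p of 0.049 without Negative Control 2 and 0.056 without GapmeR samples 3 and 4, at log2 fold changes of −1.98 and −2.12, where its alternatives as a whole ranged from 5.7e-08 to 0.056. H2-Q7 (chr17:35439140-35443773, plus strand) had 231 and 262 CPM in the controls and 84.5, 56.7, 83.5 and 58.1 CPM after knockdown. The same samples were high and low as for H2-Q6. Its means were 246 ± 22.4 and 70.7 ± 15.4 CPM, and its log2 fold change was −1.80 (SE 0.19, adjusted p = 0.00028 by edgeR's quasi-likelihood test). The coding sequences of H2-Q6 and H2-Q7 were 95.4% identical. Another member held 2.97% of the 150-base windows of H2-Q6 and 2.09% of those of H2-Q7 (5.84% and 8.61% on the canonical transcripts alone). With genes outside the members counted too, the canonical shares were 10.9% and 19%. How reads were divided between the pair, and with genes outside it, is thus uncertain.

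H2-Q4 (chr17:35379617-35384674, plus strand), a non-classical chain of the same cluster, had 704 and 813 CPM in the controls and 338, 274, 336 and 266 CPM in GapmeR samples 1 to 4. No knockdown sample reached the lower control, and the gap between the groups was wider than the range within either. Its mean went from 758 ± 77.1 to 303 ± 38.9 CPM, with a log2 fold change of −1.32 (SE 0.10, adjusted p = 1.5e-07 by edgeR's quasi-likelihood test). Other genes held 13.9% of its 150-base windows, mostly Gm11131. With H2-Q4, H2-Q6 and H2-Q7 summed as 1 feature, which does not depend on how reads were split among them, the log2 fold change was −1.56 (SE 0.14, adjusted p = 8.9e-06 by edgeR's quasi-likelihood test).

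H2-T23 (chr17:36029977-36032701, minus strand) encodes Qa-1, which shows leader peptides of other class I chains to the inhibitory receptor CD94-NKG2A of NK cells. It had 476 and 501 CPM in the controls and 206, 175, 194 and 167 CPM after knockdown. Both groups were tight, with a clear gap between them. The mean went from 489 ± 17.9 to 185 ± 17.8 CPM, and the log2 fold change of −1.40 (SE 0.08, adjusted p = 1.3e-09 by edgeR's quasi-likelihood test) had the lowest adjusted p of the 9. H2-T22 (chr17:36037128-36042742, minus strand), whose product binds some gamma-delta T cell receptors, had 455 and 485 CPM in the controls and 319, 240, 300 and 253 CPM after knockdown. Its knockdown samples spread more widely than its controls and did not reach them. Its means were 470 ± 21.2 and 278 ± 37.6 CPM, a log2 fold change of −0.76 (SE 0.10, adjusted p = 3.2e-05 by edgeR's quasi-likelihood test). A neighbouring transcript, A930015D03Rik, held 15.1% of the 150-base windows of H2-T22 but 1.95% of those of H2-T23. On the canonical transcripts alone the order turned, with 0.901% of the windows of H2-T22 and 3.1% of those of H2-T23 found in another gene. In coding sequence H2-T23 was 83.4% and H2-T22 74.4% identical to H2-K1.

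H2-M3 (chr17:37270234-37274485, plus strand), which presents N-formylated peptides such as those of bacteria, was the least changed of the 9. It had 29.4 and 33.6 CPM in the controls and 24.4, 21.2, 23.6 and 21.1 CPM after knockdown. The groups came closer than for any other member but did not overlap. Its mean went from 31.5 ± 2.99 to 22.6 ± 1.68 CPM, a log2 fold change of −0.48 (SE 0.09, adjusted p = 0.00039 by edgeR's quasi-likelihood test). Without Negative Control 2 the change was −0.36, with an adjusted p of 0.036, the highest of its alternatives, which began at 5.9e-07.

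B2m (chr2:122147687-122153082, plus strand), the light chain, lies on another chromosome and shared no 150-base window with another gene. Its level was 2816 and 2897 CPM in the controls and 1724, 1378, 1726 and 1406 CPM in GapmeR samples 1 to 4. The higher and the lower pair of knockdown samples can be seen here as well, each well under the controls. The mean went from 2856 ± 57.4 to 1558 ± 192 CPM, 54.5% of control, with a log2 fold change of −0.87 (SE 0.10, adjusted p = 3.1e-06 by edgeR's quasi-likelihood test).

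**Figure D2:**
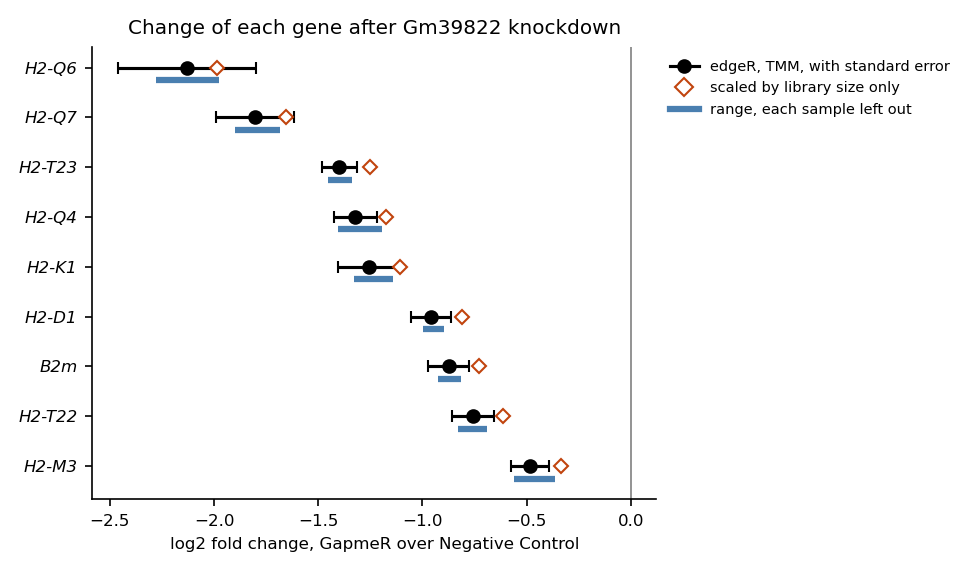
Log2 fold change (GapmeR over Negative Control, horizontal axis) of the 9 genes, ordered by size, as fitted by edgeR with TMM (black points, bars are ± SE), with scaling by library size only (diamonds), and as a range over the fits without each sample in turn (blue). Every estimate lies below 0, from −2.13 for H2-Q6 to −0.48 for H2-M3.

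The 8 heavy chains together had 7441 and 8040 CPM in the controls and 3915, 3044, 3998 and 3193 CPM after knockdown. Summed as 1 feature they had a log2 fold change of −1.13 (SE 0.11, adjusted p = 6.7e-07 by edgeR's quasi-likelihood test). All 9 members took 0.96% and 1.02% of all counts in the controls and 0.464% to 0.587% after knockdown. Heavy chain counts per B2m count were 2.64 and 2.78 in the controls and 2.27, 2.21, 2.32 and 2.27 in the knockdown samples. On the log2 scale the ratio was lower by 0.26 on average (log2 difference −0.26), without overlap of the groups and with an exact permutation p of 0.0667, the smallest this design allows. With H2-K1 and H2-D1 alone the log2 difference was −0.19.

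A ratio to B2m within a sample does not depend on the scaling between samples. H2-Q6, H2-Q7, H2-T23, H2-Q4 and H2-K1 were lower relative to B2m after knockdown, with log2 differences of −1.30, −0.94, −0.52, −0.44 and −0.39. H2-T22 and H2-M3 were higher relative to B2m, by 0.12 and 0.40 on the log2 scale. For these 7 the groups did not overlap, with an exact permutation p of 0.0667 and 0.0762 after Benjamini-Hochberg adjustment over the 8 ratios. H2-D1 moved most nearly with B2m, with a log2 difference of −0.08 and an exact permutation p of 0.133. No ratio could pass 0.05 in this design. The make-up of the heavy chain counts moved with these ratios. H2-D1 took 45.4% and 43.1% of them in the controls and 48% to 51.8% after knockdown, and H2-T22 6.12% and 6.03% against 7.51% to 8.14%. The share of H2-Q6 went the other way, from 3.62% and 4% to between 1.52% and 2.23%.

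**Figure D3:**
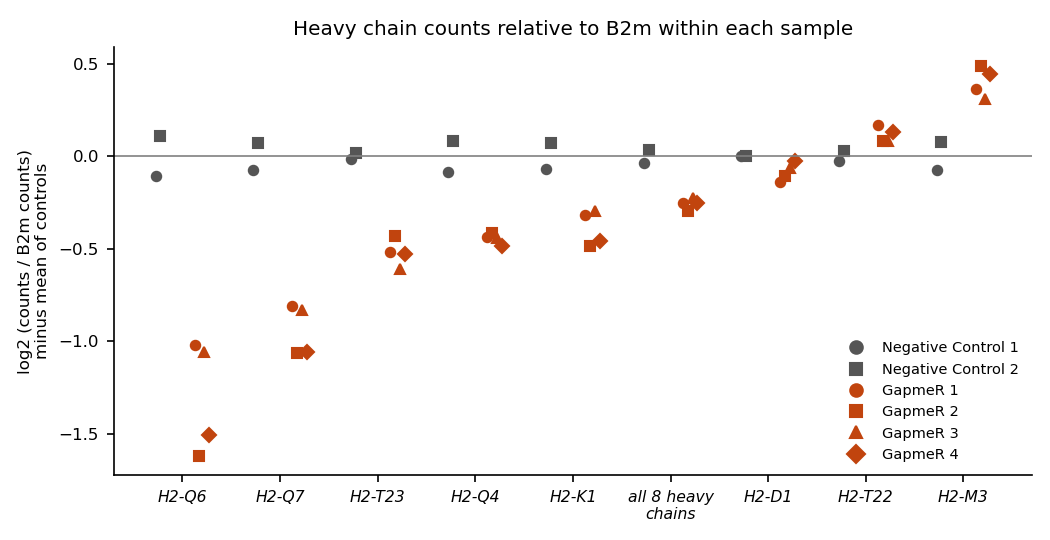
Log2 ratio of each heavy chain's counts to B2m counts in the same sample, and of all 8 summed, minus the mean of the controls (vertical axis). Points are samples; GapmeR points lie below the controls for H2-Q6, H2-Q7, H2-T23, H2-Q4, H2-K1, the sum and narrowly H2-D1, and above them for H2-T22 and H2-M3.

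Levels were compared between genes per length, as CPM per kb of exon union. In the controls B2m was highest at 1356 ± 27.3 CPM per kb (SD, n = 2), followed by H2-D1 at 1144 ± 21.3, H2-K1 at 636 ± 57 and H2-Q4 at 216 ± 22. H2-T23 and H2-T22 came next at 143 ± 5.21 and 137 ± 6.2 CPM per kb and did not differ beyond their spread. H2-Q6 followed at 86.4 ± 10.9, H2-Q7 at 57.7 ± 5.25 and H2-M3 at 17.3 ± 1.64 CPM per kb. After knockdown the 4 highest kept their places, with B2m at 740 ± 91.4, H2-D1 at 589 ± 68.4, H2-K1 at 266 ± 50 and H2-Q4 at 86.4 ± 11.1 CPM per kb (SD, n = 4). H2-T22, at 81.2 ± 11, then lay above H2-T23, at 54.1 ± 5.18, with no overlap between them, and H2-Q4 and H2-T22 overlapped. H2-Q6 at 19.8 ± 6.42 and H2-Q7 at 16.6 ± 3.6 overlapped too, and H2-M3 was lowest at 12.4 ± 0.921. The order of H2-Q6 and H2-Q7 turned when the length of the canonical transcript was used, at 139 and 165 CPM per kb in the controls. With that length H2-T23 and H2-T22 were at 332 and 259 CPM per kb in the controls, and at 126 and 153 after knockdown. How far these 2 genes lie apart in each group, and whether they overlap, thus depends on the length used. Read counts of polymorphic class I genes were made against the C57BL/6J reference, and bEND.3 cells come from a BALB/c background, which carries other alleles and the further gene H2-L; the effect on levels was not tested.

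**Figure D4:**
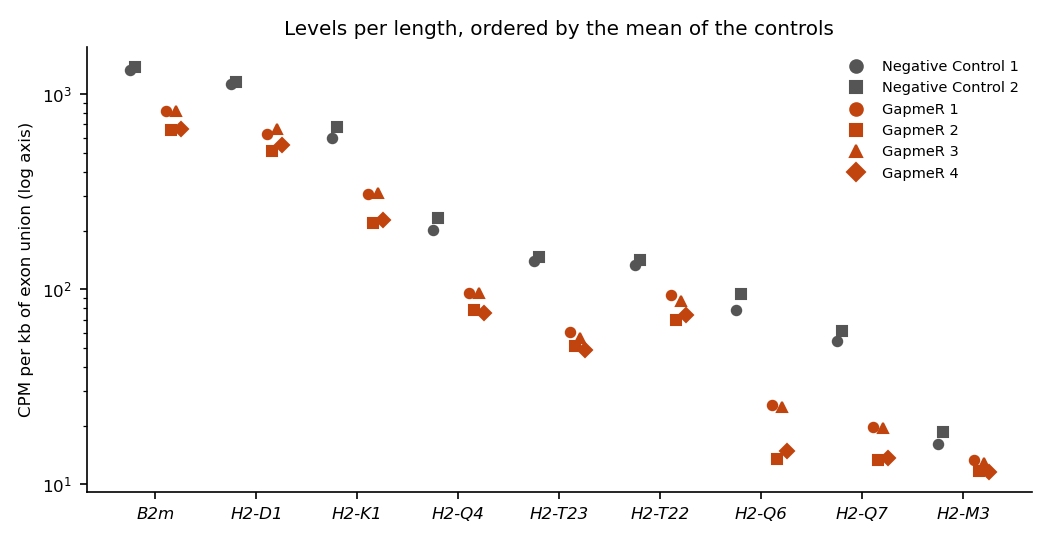
Level of each gene per length in every sample, in TMM-scaled CPM per kb of exon union on a log axis, ordered by the mean of the controls. With this length, H2-T23 and H2-T22 lie together in the controls and apart after knockdown.

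The knockdown samples differed among themselves in a way shared by the members. GapmeR samples 2 and 4 were the lower pair for 9 of 9 genes, with GapmeR 2 lowest for 6 and GapmeR 4 for 3. The share of all genes tested with this order was not computed, so it is not shown to be particular to the members. B2m was at 60.3% and 60.4% of the control mean in GapmeR samples 1 and 3, and at 48.2% and 49.2% in samples 2 and 4. For H2-Q6 those values were 29.6%, 28.9%, 15.7% and 17.2%. The coefficient of variation among knockdown samples was 32.5% for H2-Q6, 21.8% for H2-Q7 and 18.8% for H2-K1, but 9.59% for H2-T23 and 7.43% for H2-M3. The summed leukocyte markers ordered these samples otherwise, at 222, 203, 337 and 372 CPM in GapmeR samples 1 to 4. The summed endothelial markers were at 7092, 6133, 7116 and 7063 CPM. They too were lowest in samples 2 and 4, though sample 4 lay close to samples 1 and 3. Without GapmeR samples 3 and 4, a choice made after the data were seen, 8 of 9 members were still called lower, H2-Q6 being the exception, and the summed heavy chains had a log2 fold change of −1.13.

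Other class I genes did not move as 1 group. Of 35 listed, 25 were in the table and 12 could be tested. Of the 12, 3 fell and 2 rose, with a median log2 fold change of −0.09. Over all genes tested 20.0% were called lower and 25.4% higher, and the counts of this list are near those shares. The 3 that fell were H2-Q5 (12.3 to 5.61 CPM, log2 fold change −1.13, adjusted p = 8.4e-06 by edgeR's quasi-likelihood test), H2-T10 (−0.70, adjusted p = 0.0007) and H2-T24 (−0.64, adjusted p = 1.6e-05). H2-K2, a class I locus next to H2-K1 that GENCODE M39 annotates as a long non-coding RNA, went the other way. It had 236 and 307 counts in the controls and 973, 902, 798 and 763 after knockdown, each knockdown sample above both controls. Its log2 fold change was 1.47 (SE 0.11, adjusted p = 2.8e-08 by edgeR's quasi-likelihood test). H2-M10.2, named because it was the only other gene called higher, had no count in the controls and 4, 6, 5 and 11 counts after knockdown, at least 1.9-fold higher when 3 counts per control library are taken as the floor. The count of genes called higher was 1 without Negative Control 2 and 3 without GapmeR 2.

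Among 5 tested genes whose products also bind B2m or resemble class I chains, 2 fell and 1 rose, with a median log2 fold change of −0.30. Of all genes tested, 20.0% were called lower and 25.4% higher. Hfe, a regulator of iron uptake, fell from 20.4 ± 0.459 to 14.3 ± 0.704 CPM (log2 fold change −0.51, adjusted p = 0.00023 by edgeR's quasi-likelihood test). Mr1, which presents vitamin B metabolites to MAIT cells, fell by 0.30 on the log2 scale (adjusted p = 0.024). Fcgrt, the neonatal Fc receptor that recycles IgG, rose from 6.67 ± 1.05 to 11.5 ± 0.904 CPM (log2 fold change 0.79, adjusted p = 0.00011 by edgeR's quasi-likelihood test). Library size scaling, or leaving out Negative Control 1, Negative Control 2 or GapmeR 4, left 1 gene called lower here.

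Peptide loading genes fell almost throughout. Of 14 tested, 13 fell and none rose, with a median log2 fold change of −0.59, where 20.0% of all genes tested were called lower. Tap1 and Tap2, the peptide transporter, went from 483 ± 15 to 280 ± 34.8 CPM and from 243 ± 15.9 to 167 ± 21.3 CPM, with log2 fold changes of −0.79 and −0.54 (adjusted p = 1.2e-05 and 0.00053 by edgeR's quasi-likelihood test). Tapbp, tapasin, changed by −0.69 on the log2 scale (adjusted p = 8.1e-05), and its relative Tapbpl, a peptide editor, one of −1.26 (adjusted p = 7.8e-09). Erap1, which trims peptides in the endoplasmic reticulum, went from 95.5 ± 0.0282 to 44.8 ± 2.45 CPM (log2 fold change −1.09, adjusted p = 3.4e-09 by edgeR's quasi-likelihood test). Psmb10, a subunit of the immunoproteasome, changed by −0.91 on that scale (adjusted p = 8.2e-08). Psme3, a regulator of the nuclear proteasome that is no part of the interferon-induced set, was the 1 gene not called, at 113 ± 8.42 and 113 ± 12.1 CPM.

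Regulators of class I genes and interferon signalling were mixed. Of 26 tested, 11 fell and 3 rose, with a median log2 fold change of −0.20, where 20.0% of all genes tested fell and 25.4% rose. Irf1, an interferon-induced factor that binds class I promoters, fell from 156 ± 4.41 to 85.4 ± 8.16 CPM (log2 fold change −0.87, adjusted p = 4.1e-07 by edgeR's quasi-likelihood test). Nlrc5, the class I coactivator, fell from 19.2 ± 2.79 to 12 ± 0.775 CPM (log2 fold change −0.68, adjusted p = 6.7e-05), and Irf7 by 0.61 on the log2 scale (adjusted p = 0.012). Rfx5, part of the RFX complex, was at 14.9 ± 0.347 and 12.5 ± 1.67 CPM and was not called (adjusted p = 0.09). The 3 that rose, named because they were few, were Nfyb, Nfkb1 and Tyk2. The count of genes that fell was 6 with library size scaling, 7 without Negative Control 1 and 5 without Negative Control 2, and the count that rose was 0 and 1 without those controls.

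MHC class II genes were near the limit of detection. Of 10 listed, 6 could be tested, none fell and H2-Ab1 rose, with 13 and 3 counts in the controls and 24, 16, 28 and 26 after knockdown (log2 fold change 1.34, adjusted p = 0.048 by edgeR's quasi-likelihood test). No gene of this list was called without GapmeR 3, without GapmeR 4 or without Negative Control 2, nor by DESeq2, and 2 were called without GapmeR 2. The median log2 fold change of the 6 was 0.77, while 20.0% of all genes tested were called lower and 25.4% higher. Cd74, the class II chaperone, shown here after its values were seen, had 27 and 22 counts in the controls and 38, 18, 74 and 53 in GapmeR samples 1 to 4. Its highest counts were in GapmeR samples 3 and 4, where the summed leukocyte markers were also highest, at 337 and 372 CPM, and the part of these markers in the class II counts was not tested.

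**Figure D5:**
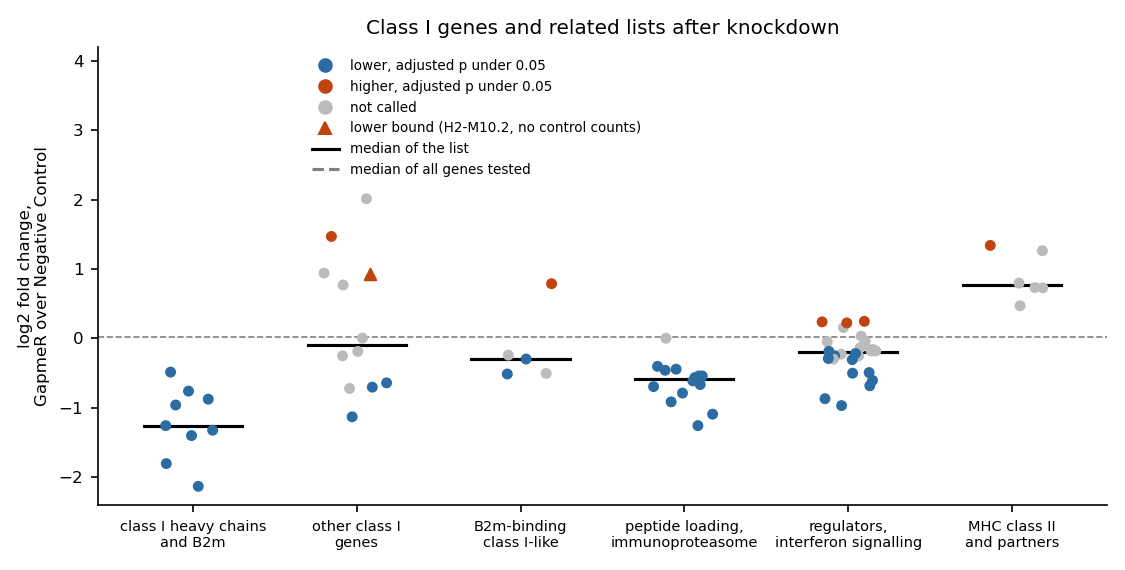
Log2 fold change (vertical axis) of each tested gene in the 9 members and 5 lists, coloured by call at an adjusted p under 0.05, with the median of each list (black line) and of all genes tested (dashed line). The triangle is the lower bound for H2-M10.2. The members and the peptide loading list lie almost wholly below 0. The class II list holds 1 call, above 0, and the remaining lists hold calls on both sides.

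The genes most like the members were found among 8861 genes with a mean of at least 10 CPM, by Pearson's r with the mean log2 level of the 9 members over the 6 samples. They were Lpcat3 (r = 0.9999, log2 fold change −0.56), Cfap43 (0.9992, −1.005), Zbp1 (0.9989, −1.63), Trafd1 (0.9987, −0.63) and Ube2e3 (0.9987, −0.29). Such values describe a group difference together with the order of the knockdown samples, in samples that also share their library and depth. Lpcat3, an enzyme of membrane phospholipids, had 70.2 and 74 CPM in the controls and 52, 45.8, 51.6 and 46.1 CPM in GapmeR samples 1 to 4. Samples 2 and 4 were lowest, an order that follows from choosing genes by r with the members. Zbp1, an interferon-induced sensor of Z-form nucleic acids, had 247 and 277 CPM in the controls and 99.8, 68.9, 95.7 and 74.8 CPM after knockdown.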

How the data were processed

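RNA sequencing of bEND.3 cells was analysed from read counts deposited by the authors. They depleted ribosomal RNA, sequenced paired reads of 150 bases and ran the bcbio-nextgen pipeline with alignment to mm10 and Ensembl transcripts. The submitters' processing notes name Trimmomatic 0.36, STAR 2.5.2b and Subread 1.5.2. Strand, the treatment of reads with several matches and the Ensembl release are not given in the sources used here. The deposited values are whole-number counts per gene, neither normalized nor filtered, and 174 rows without a gene name held at most 0.00317% of a sample's counts.

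Samples were grouped by their labels into 4 GapmeR and 2 Negative Control samples, while the series text gives 4 in each group. The table has 1 further column of counts, named in the manner of the control columns but matching no sample label, which was used in no step, so the controls number 2 throughout. Total counts were 29261988 to 37117934. Samples of a group differed by more than counting noise (chi-square over degrees of freedom at least 6.12), so no library was counted as a second deposit of another.

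Tests covered genes that reached 5 counts in 2 or more samples and were run with edgeR 4.0.16 in R 4.3.3 (TMM, robust quasi-likelihood fit, group as the only term), with Benjamini-Hochberg adjustment over 18234 genes. TMM factors were 1.02 to 1.05 (GapmeR) and 0.931 and 0.936 (controls). Each SE was taken as the log2 fold change over the square root of F. CPM are TMM-scaled, and SDs are between samples. Single values were also tested with an exact 2-sided permutation over samples. Alternatives were DESeq2 1.42.0 (size factors, Wald test), limma-voom 3.58.1, library size scaling, other filters, a replicate block, sums of similar genes and each sample left out. Canonical transcript lengths and the fit without GapmeR samples 3 and 4, those with the highest leukocyte marker counts, were chosen once the data had been seen. Among the fits, only the main edgeR one was checked on simulated counts.

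Exon lengths, shared windows and coding sequences came from GENCODE M39 (GRCm39). Gene positions and promoters came from RefSeq (GRCm38.p6), which held all 9. The members and gene lists were chosen with earlier results of these data known. Named from each list were up to 4 called genes with the largest change and a mean of at least 1 CPM, always Tap1, Tap2, Tapbp, Nlrc5, Irf1 and Rfx5, and the 5 genes most like the members; 1 further gene of this rule is not reported here.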

Additional observations from a re-analysis of the deposited data

Results flagged for a closer look

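The level of Erap1, the peptide-trimming enzyme, was 48.5 CPM in its highest knockdown sample, whose distance from the next was 0.833 of the whole range of the 4 knockdown samples, against a limit of 0.829 for 4 samples. Of 42 sets of knockdown samples examined in this way it was the 1 found. Chance alone gives about 1 in 20 sets, so 1 find among 42 is no more than chance would give.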

How the results depend on the processing

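Of 330 values recomputed under an alternative, 306 kept their direction and their side of the threshold or stayed within the spread, and none changed sign. The 9 members were called lower in every fit except the added one without GapmeR samples 3 and 4, where H2-Q6 had a log2 fold change of −2.12 and an adjusted p of 0.056, and its adjusted p was 5.7e-08 to 0.049 in the others. Over all genes, 3643 were called lower with all samples, 2262 without Negative Control 1, 1930 without Negative Control 2 and 2135 with library size scaling. The ratio of summed heavy chains to B2m differed by −0.19 (log2) with H2-K1 and H2-D1 alone and by −0.29 to −0.22 with each sample left out, and that of H2-Q4 by −0.53 to −0.36; the ends came from leaving out a control. With library size scaling, 1 gene of the B2m-binding list and 6 regulators were called lower, in place of 2 and 11. By DESeq2's Wald test, 0 class II genes were called higher. With each sample left out, the calls were 1 to 3 other class I genes higher, 1 to 2 B2m-binding genes lower, 5 to 11 regulators lower and 0 to 3 higher, and 0 to 2 class II genes higher. Fits with a sample left out held fewer samples, whereas the library size and DESeq2 fits used all of them. Library size scaling moved the median log2 fold change of all genes up by 0.15. The cause of these moves was not tested.

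Same-numbered samples share only a number in the labels. Correlations of their deviations from the group means were −0.11 and 0.17 over 8870 genes. With 2 controls the deviations mirror each other, so these values are not independent and cannot decide whether samples were paired. A replicate block on the 4 samples with a partner called 7812 genes, against 7661 for the same 4 samples without the block and 8268 for all 6 samples, and called all 9 members lower (H2-K1 −1.27, H2-Q6 −2.18 with an adjusted p of 0.034 by edgeR against 0.056 without the block, summed heavy chains −1.14), with 1 other class I gene higher, 1 B2m-binding gene lower and 0 class II genes higher. With 2 controls, each control decides much of the p-values.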
